A study of Mus musculus with 96 samples.

Results

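The genes described here are 10 redox defence genes in single mouse marrow cells: Prdx1, Prdx2, Sod1, Cat, Gpx1, Gclc, Gclm, Nqo1, Txn1 and Gstp1. They were taken by name from a table of 24321 gene symbols, and all 10 were present, each with 1 transcript. RNA was sequenced from 96 cells of C57BL/6 mice of genotype Rpl11 +/lox, which carry a lesion at a gene for a protein of the large ribosomal subunit. All cells carry that genotype and the label of erythroid precursor, and the series places them between the burst-forming unit-erythroid, an early red cell progenitor, and the basophilic erythroblast. No wild-type cell, animal, age, treatment or Cre driver is named in the labels used here, and the cells were therefore treated as a single sample, which allows no test between conditions. Differences below are of mean log2(RPKM + 1) between classes of cells, SDs are over cells, and a difference of 1 or more is called higher or lower, with no p-value. RPKM is the number of reads per kilobase of transcript, scaled to 1000000 mapped reads, so levels of different genes can be set side by side.

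Red cell precursors load themselves with hemoglobin, whose iron and oxygen chemistry yields superoxide and hydrogen peroxide. Superoxide dismutases turn superoxide into hydrogen peroxide, which peroxiredoxins, catalase and glutathione peroxidases then remove. Peroxiredoxins draw their reducing power from thioredoxin, and glutathione peroxidases draw theirs from glutathione, whose synthesis starts with glutamate-cysteine ligase. Prdx2 is one of the most abundant proteins of the mature red cell, and mice without it have hemolytic anemia.

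Many redox genes are targets of NRF2, which binds the antioxidant response element as a dimer with a small MAF protein, and many erythroid genes carry a CACCC-type box, which KLF1 binds. Promoters of 9 of the 10 genes were found in the RefSeq promoter table (build GRCm38.p6, 300 bases around each start), and the Gclc promoter was not analysed here. The element core TGACNNNGC, searched on both strands, was present in 3 of 9 promoters, against 12.4% of 32851 promoters of the same length. The box CCNCNCCC, also on both strands, was present in 9 of 9, against 49.5% of all. The Sod1 match to TGACNNNGC overlaps a match to CCNCNCCC. The stretches below hold the element core of Prdx1 (chr4:116685446-116685494), Sod1 (chr16:90220686-90220734) and Gclm (chr3:122245403-122245451), and both boxes of Prdx2 (chr8:84969504-84969602). All are on the plus strand, 5′ to 3′, with the match in capitals. They are shown because Gclm and Prdx2 were kept in the cells richest in globin while Prdx1 and Sod1 were not, as described next. A match is a description of letters, not a site of binding.
Prdx1: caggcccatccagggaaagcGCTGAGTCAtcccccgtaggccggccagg
Sod1: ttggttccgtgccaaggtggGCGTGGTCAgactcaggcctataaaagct
Gclm: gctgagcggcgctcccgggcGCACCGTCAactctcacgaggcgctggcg
Prdx2: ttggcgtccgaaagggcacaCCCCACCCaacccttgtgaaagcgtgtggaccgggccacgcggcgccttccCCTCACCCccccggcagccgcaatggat
In these 3 genes the core reads on the reverse strand, 133 to 125 bases before the start of Prdx1, 56 to 48 before that of Sod1 and 134 to 126 before that of Gclm. The boxes of Prdx2 lie 98 to 91 and 47 to 40 bases before its start. The element core thus occurred both in a kept gene and in genes that were not kept, and not in the printed window of Prdx2. The box too occurred in both, with 2 matches in Prdx2 and 3 each in Prdx1, Sod1 and Gclm, where it is not marked.

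A total of 69 cells listed 1000 genes or more at 1 RPKM, and the 27 poorer cells entered no class. Of the 69, 55 were erythroid by markers other than globin. They were split by Hba-a1, an alpha-globin gene, into 7 globin-low cells (under 100000 RPKM), 11 globin-mid cells and 37 globin-rich cells (300000 RPKM or more). The values nearest to these bounds were 76269 and 129407 RPKM at the lower one and 270948 and 307302 RPKM at the upper one. Marker counts here are at 10 RPKM or more. The globin-low cells held a median of 17 of 23 erythroid markers (3 to 22). The median was 19 in globin-mid cells (17 to 21) and 17 in globin-rich cells (11 to 23). The lowest count, 3, was the minimum of the rule and belonged to cell 68, the globin-low cell with the least Hba-a1. That cell also held 4 of 10 early progenitor and 3 of 10 monocyte markers, so its lineage is uncertain. Of the 10 early progenitor markers, globin-low cells held a median of 1 (0 to 4), globin-mid cells 0 and globin-rich cells 0 (0 to 2). One of these markers, Kit, the stem cell factor receptor, reached 1 RPKM in 0 of the 55 cells. That allows a share of up to 6.49% (exact 95% interval). Such intervals cover counting error only, because reads were amplified and carried no molecular identifiers. In 9 further cells Mpo, the myeloperoxidase gene of myeloid cells, was at 1543 RPKM or more, and these Mpo-high cells go against their label. They held 1 to 4 of the 23 erythroid markers (median 2). Of 11 neutrophil markers they held 3 to 10 (median 4), and of 10 monocyte markers 2 to 10 (median 7). By the rule for another lineage given below, most of them met the monocyte list and only cell 57 met the neutrophil list. Gata1 and Klf1 reached 1 RPKM in 0 of 9, whereas the granule protease gene Elane was at 220 to 24064 RPKM in all 9. The number of genes per cell moved with globin: the median was 4490 in globin-low, 3016 in globin-mid, 1551 in globin-rich and 4900 in Mpo-high cells. The median depth estimated per cell was 4978, 6750, 7320 and 4841 units of 1000 reads in the same order. Its ranges overlapped, at 2555 to 7294 in globin-low and 1495 to 11583 in globin-rich cells. This estimate makes no allowance for globin reads, so the depth left for other genes is not known. The part of this decline in genes in the results below was not tested.

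Of the 10 genes, 3 were kept in globin-rich cells: the peroxidase genes Prdx2 and Gpx1, and Gclm, which encodes the modifier subunit of glutamate-cysteine ligase. All 3 reached 1 RPKM in 37 of 37 globin-rich cells (100%, 90.5% to 100%). Of the 5855 genes that reached 1 RPKM in no fewer than 10 classed cells, 80 (1.37%) were listed in every globin-rich cell. That share is over genes of all levels and was not matched to the levels of these 3. The thioredoxin gene Txn1 was reduced: it was still listed in 32 of 37 cells but its mean was lower by more than 1. The other 6, namely Prdx1, Sod1, Cat, Gclc, Nqo1 and Gstp1, were lost, which here means listed in at least 50% of globin-low cells and under 50% of globin-rich cells. Being lost was the usual state of a gene: of 3906 genes listed in at least 50% of globin-low cells, 75.8% were lost, 16.5% were reduced and 7.71% were kept. Among the 1010 genes with a globin-low median of at least 100 RPKM, which are less easily missed, 47.0% were lost, 42.4% were reduced and 10.6% were kept.

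**Figure D1:**
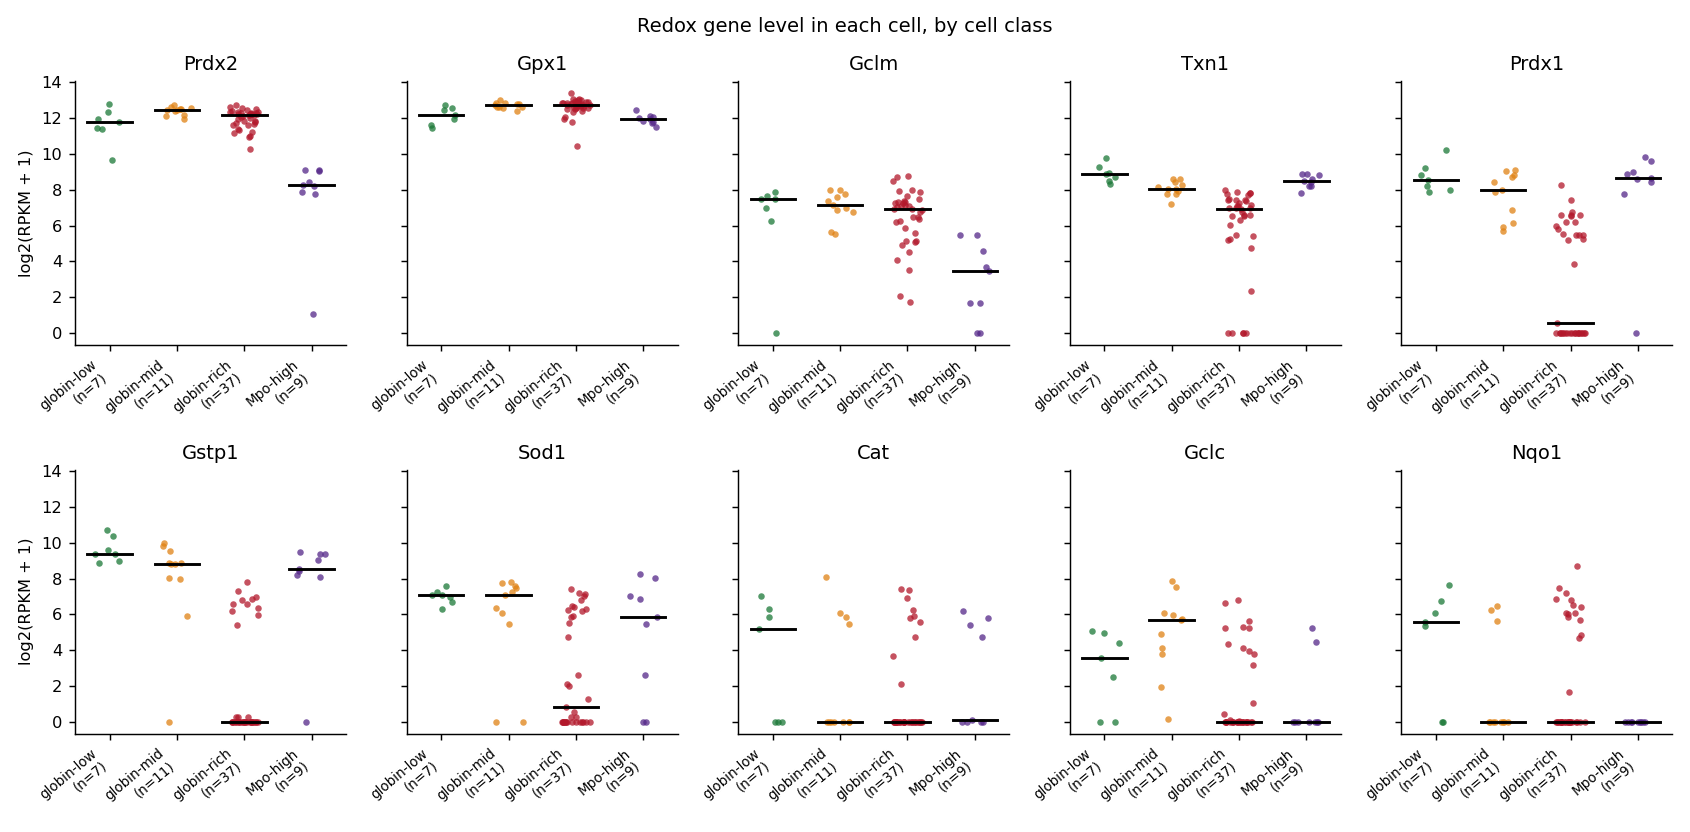
Level of each redox gene, as log2(RPKM + 1) on the vertical axis, in every cell of 4 classes, with 1 point a cell and a black line at the median. Prdx2 and Gpx1 lie near the top in all erythroid classes, with the widest Prdx2 spread in globin-low cells, Gclm spreads widely but is never at 0 in a globin-rich cell, and Prdx1, Gstp1, Sod1, Cat, Gclc and Nqo1 have many globin-rich cells at or near 0.

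Between globin-rich and globin-low cells, 7 of the 10 genes were lower and 0 were higher, where 71.2% of the 5855 genes were lower, 2.97% were higher and the median difference was −2.03. The count of lower members is therefore near that of all genes. The rule for kept asks for a difference above −1, so a kept gene must lie above that median. The 3 kept genes did so by 2.36 for Prdx2, by 2.54 for Gpx1 and by 2.18 for Gclm. Their own differences depend on the scale. As deposited they were 0.33 for Prdx2, 0.51 for Gpx1 and 0.15 for Gclm. With every cell rescaled to a total of 1000000 they were −1.31, −1.13 and −1.35, so that none of the 3 met the rule for kept, and with globin genes left out before rescaling they were 1.58, 1.76 and 1.47. The distance from the median of the 5855 genes was 1.23, 1.41 and 1.19 after rescaling and 3.64, 3.82 and 3.53 without globin. Against the median of all 13088 genes with any value, with no filter on low values, it was 0.89, 1.07 and 0.71 as deposited. The sample descriptions carry 3 codes, called runs here, but the titles give SCP-1706080 to every cell. What the codes stand for is not stated. Within run SCP-1706013 the differences of Prdx2, Gpx1 and Gclm were −0.61, 0.06 and −1.06 beside a median gene of −1.81. Within run SCP-170608 they were 1.19, 0.89 and 1.41, again above the median gene. Gclm was thus past the bound for reduced in the first of these runs, which held 3 globin-low and 9 globin-rich cells. In both runs Gstp1 (−9.48 and −8.17), Prdx1 (−5.47 and −6.42) and Sod1 (−5.65 and −5.20) were the lowest of the 10 genes. Run SCP-1706080 held 1 globin-low cell, so it gives no value of its own.

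**Figure D2:**
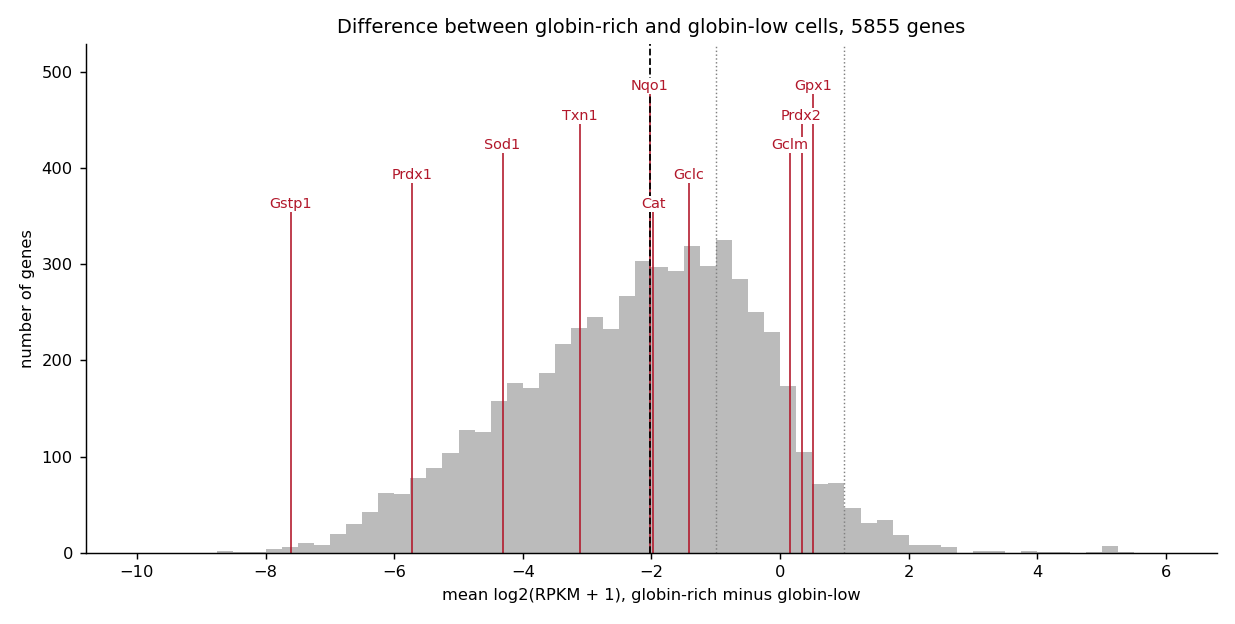
Number of genes (vertical axis) by difference in mean log2(RPKM + 1), globin-rich minus globin-low (horizontal axis), for 5855 genes in grey, with the 10 redox genes as labelled red lines. The dashed line is the median of all genes at −2.03 and the dotted lines are at −1 and 1; Gclm, Prdx2 and Gpx1 lie to the right of the bulk, Cat and Nqo1 lie at the median, and Gstp1, Prdx1 and Sod1 lie far to its left.

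Prdx2, the cytosolic peroxiredoxin of red cells, had a median of 3486 RPKM in globin-low cells (826 to 7121), 5695 RPKM in globin-mid cells (3982 to 6709) and 4569 RPKM in globin-rich cells (1243 to 6770). The ranges of the 3 classes overlapped, and the lowest level belonged to the globin-low cell with the least Hba-a1. Along Hba-a1 the medians formed an arch: Prdx2 was at 5902 RPKM in 6 cells between 200000 and 300000 RPKM of Hba-a1, at 4912 RPKM in 9 cells up to 400000, at 4457 RPKM in 20 cells up to 500000 and at 3424 RPKM in 8 cells above that. Within globin-rich cells Spearman's rho of Prdx2 with Hba-a1 was −0.52 over 37 cells, against a median of −0.20 over all genes. These cells share 1 sample, and their values share the cell's total, so rho is a description. As deposited, Prdx2 differed by −0.45 between globin-rich and globin-mid cells. That difference was −1.20 after rescaling to a total of 1000000 and 0.48 with globin genes left out. The falling side of the arch thus depends on the scale. Over the erythroid cells of runs SCP-1706013, SCP-170608 and SCP-1706080, rho of Prdx2 with Hba-a1 was −0.66, 0.13 and −0.49. Without the globin-low cell of least Hba-a1 the difference between globin-rich and globin-low cells was 0.01 in place of 0.33.

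Prdx1 encodes a peroxiredoxin found in most cell types. Its median was 372 RPKM in globin-low cells (232 to 1180), 254 RPKM in globin-mid cells (51.9 to 552) and 0.46 RPKM in globin-rich cells (0 to 309). It was listed in 7 of 7, 11 of 11 and 18 of 37 cells (48.6%, 31.9% to 65.6%), and 1 more globin-rich cell would have put it above the bound of 50%. Within the globin-rich class it was listed in 7 of 9 cells below 400000 RPKM of Hba-a1, in 9 of 20 cells between 400000 and 500000 RPKM and in 2 of 8 cells above that, while the median number of genes per cell was 2104, 1556 and 1094.5. At the estimated depths, which are rough, 3 reads of Prdx1 correspond to a median of 0.18 RPKM in globin-rich cells (0.11 to 0.87). Such a floor does not cover transcripts missed before sequencing, and that part was not tested. The difference to globin-low cells was −5.73 (SD over cells 3.13 in globin-rich and 0.82 in globin-low), and −5.47 without the cell of least Hba-a1. As a share of both peroxiredoxin transcripts together, Prdx2 made up a median of 90.5% in globin-low, 95.9% in globin-mid, 99.98% in globin-rich and 51.9% in Mpo-high cells.

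**Figure D3:**
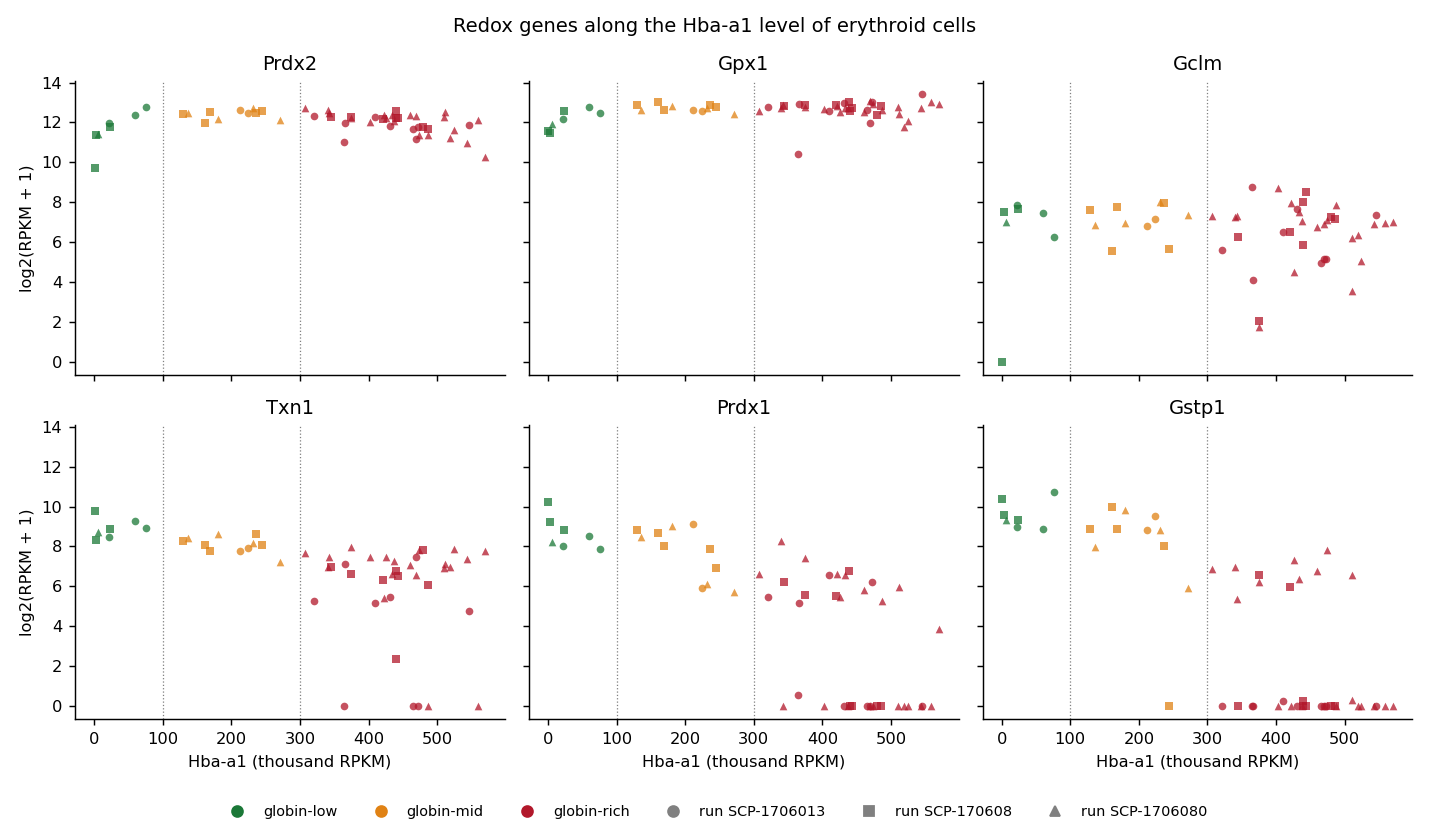
Levels of 6 redox genes as log2(RPKM + 1) (vertical axis) against Hba-a1 in units of 1000 RPKM (horizontal axis) in 55 erythroid cells, coloured by class, with a symbol for each run code and dotted lines at the class bounds. Prdx2 and Gpx1 stay above 9 on the log2 scale in every cell, Txn1 declines with a few cells at 0, and Prdx1 and Gstp1 split above 300000 RPKM into cells that list the gene and cells at 0.

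Gpx1, the cytosolic glutathione peroxidase, was the most abundant of the 10 genes by RPKM in each of the 3 erythroid classes. Its median was 4562 RPKM in globin-low cells (2801 to 6931), 6752 RPKM in globin-mid cells (5439 to 8393) and 6859 RPKM in globin-rich cells (1371 to 10859). The classes overlapped, and 1 globin-rich cell lay well below the rest. Gpx1 was the only member with a positive rho with Hba-a1 over the 55 erythroid cells (0.23), a sign that 5.86% of the 5855 genes shared. Together Prdx2 and Gpx1 made up a median of 82.5% of the summed RPKM of the 10 genes in globin-low cells, 89.0% in globin-mid cells and 96.3% in globin-rich cells. The summed level itself was 10131 RPKM in globin-low cells (7415 to 15580) and 11970 RPKM in globin-rich cells (3877 to 14802).

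Sod1 and Cat act on either side of hydrogen peroxide, as the cytosolic superoxide dismutase and as catalase. Sod1 was listed in 7 of 7 globin-low cells at a median of 132 RPKM (77.4 to 190), in 9 of 11 globin-mid cells at 135 RPKM (0 to 219) and in 18 of 37 globin-rich cells (48.6%, 31.9% to 65.6%) at 0.79 RPKM (0 to 172). The difference between globin-rich and globin-low cells was −4.32. Its count in globin-rich cells differed by run code: Sod1 was listed in 3 of 9, 2 of 8 and 13 of 20 cells of runs SCP-1706013, SCP-170608 and SCP-1706080. Within the last of these runs Sod1 was higher by 0.71 in globin-rich than in globin-mid cells, where the pooled difference was −3.03. Over the 5855 genes the mean share of globin-rich cells listing a gene was 25.6%, 26.2% and 26.0% in these runs, and what sets the runs apart was not tested. Cat was listed in 4 of 7 globin-low, 4 of 11 globin-mid and 10 of 37 globin-rich cells (27.0%, 13.8% to 44.1%), with a highest value of 273 RPKM in a globin-mid cell. Its difference of −1.97 was that of the median gene. The 10 globin-rich cells listing Cat were 2 of 9, 0 of 8 and 8 of 20 by run.

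Glutamate-cysteine ligase is made of a catalytic subunit, encoded by Gclc, and a modifier subunit, encoded by Gclm, and the transcripts of both differed in pattern. Gclm had a median of 176 RPKM in globin-low cells (0 to 234), 142 RPKM in globin-mid cells (45.8 to 258) and 119 RPKM in globin-rich cells (2.32 to 428). The only erythroid cell at 0 was the globin-low cell with the least Hba-a1, and without it the difference between globin-rich and globin-low cells was −0.89 in place of 0.15. Gclc was listed in 5 of 7 globin-low cells at a median of 10.7 RPKM (0 to 32.5), in 10 of 11 globin-mid cells at 50.0 RPKM (0.13 to 232) and in 12 of 37 globin-rich cells (32.4%, 18.0% to 49.8%) with a median of 0 (0 to 111). Gclc thus had its highest median in the middle class, and its difference of −3.38 between globin-rich and globin-mid cells was larger than that of −1.42 to globin-low cells. Since Gclm was listed in all 37 globin-rich cells, the cells of this class without Gclc listed the modifier subunit alone.

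Txn1, Nqo1 and Gstp1 encode thioredoxin, a quinone reductase and a pi-class glutathione transferase. Txn1 had a median of 469 RPKM in globin-low cells (323 to 879), 267 RPKM in globin-mid cells (149 to 391) and 120 RPKM in globin-rich cells (0 to 253). Its difference between globin-rich and globin-low cells was −3.12. Gstp1 showed the largest difference of the 10 genes, −7.61. Its medians were 650 RPKM in globin-low (464 to 1671), 457 RPKM in globin-mid (0 to 994) and 0 in globin-rich cells (0 to 226). It was listed in 11 of 37 globin-rich cells (29.7%, 15.9% to 47.0%), by run in 0 of 9, 2 of 8 and 9 of 20. Gstp1 lies beside Gstp2, a near-identical copy, so reads may have been split or shared between them. Their rho over 55 cells was 0.99 and the value of Gstp1 alone is uncertain. Nqo1 was listed in 5 of 7 globin-low cells at a median of 47.1 RPKM (0 to 196), in 3 of 11 globin-mid cells (0 to 86.7) and in 15 of 37 globin-rich cells (40.5%, 24.8% to 57.9%; 0 to 413). The order of the last 2 classes turned by run: Nqo1 was listed in 3 of 5 globin-mid and 2 of 8 globin-rich cells of run SCP-170608 (a difference of −2.07), and in 0 of 4 and 10 of 20 cells of run SCP-1706080 (2.89). Its difference of −2.02 between globin-rich and globin-low cells was that of the median gene.

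**Figure D4:**
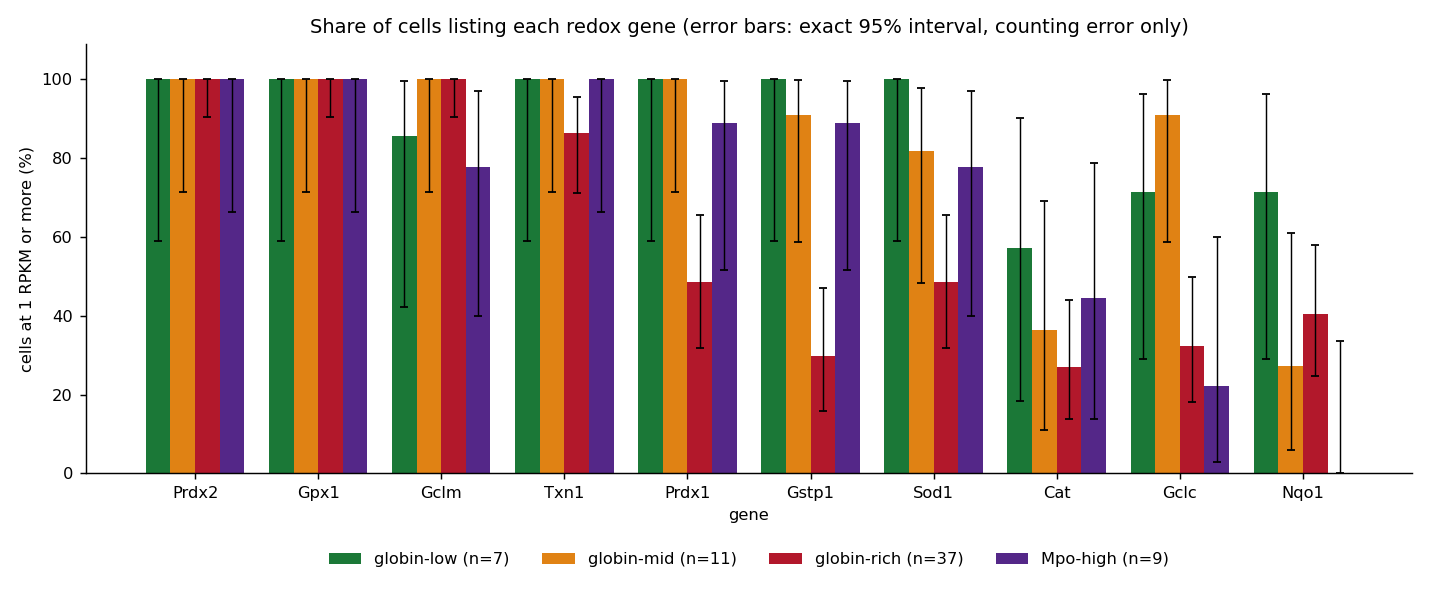
Percent of cells listing each redox gene at 1 RPKM or more (vertical axis, bars from 0) in 4 classes, with exact 95% intervals as error bars that cover counting error only. Prdx2 and Gpx1 reach 100% in all 4 classes and Gclm in the globin-mid and globin-rich classes, the globin-rich bars of Prdx1 and Sod1 stand at 48.6%, and Nqo1 has no bar in Mpo-high cells.

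From globin-mid to globin-rich cells, 5 of the 10 genes were lower and 0 were higher, where 52.4% of all genes were lower and 0.803% were higher. The 5 were Prdx1 (−4.73), Sod1 (−3.03), Gclc (−3.38), Txn1 (−2.28) and Gstp1 (−5.89). When the erythroid cells were instead split into 3 equal parts by Hba-a1, Sod1 was at 0.51 (by rank) or 0.45 (by share of the cell's total) and Gclc at 0.14 (by share), so the sign of these 2 depends on where the classes are bounded. Over all 55 erythroid cells rho with Hba-a1 was −0.80 for Prdx1, −0.75 for Gstp1, −0.65 for Txn1 and −0.50 for Sod1, and between −0.40 and 0.23 for the other 6 genes, where the median of all genes was −0.42. The number of genes per cell had a rho of −0.94 with Hba-a1 over the same cells, and both orders of the cells are nearly the same. In the 7 globin-rich cells with at least 2000 genes, Prdx1 and Sod1 were each listed in 5, Gstp1 and Nqo1 each in 4, and Cat and Gclc each in 3. Taking these 7 cells as the globin-rich class, 3 genes were kept, 5 were reduced and 2 were lost.

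Mpo-high cells listed little Prdx2 and Gclm and no Nqo1 beside globin-low cells, and Gpx1, Txn1 and Prdx1 did not pass the bound. Of the 10 genes, 6 were lower and 0 were higher in Mpo-high cells, where 29.5% of all genes were lower and 18.1% were higher; this comparison shares the globin-low cells with the one above. Prdx2 had a median of 307 RPKM in Mpo-high cells (1.08 to 558), with a difference of −3.97. Gclm was at 10.2 RPKM (0 to 44.0), a difference of −3.34, and Nqo1 was listed in 0 of 9 cells, which allows a share of up to 33.6%, a difference of −4.48. Sod1 (−2.10), Gclc (−1.85) and Gstp1 (−1.76) were the other genes past the bound. Without the Mpo-high cell with the fewest genes (1842), in which Prdx1 and Gstp1 were at 0, Gstp1 was at −0.78, Prdx2 at −3.15 and 5 genes were lower. Within run SCP-170608, with 3 cells in each class, Prdx2 was at −2.26, Gclm at −1.12 and Nqo1 at −4.03.

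Of the genes within the bound, Gpx1 had a median of 4044 RPKM in Mpo-high cells (2925 to 5555) and a difference of −0.20. Txn1 was at 359 RPKM (222 to 478) and Prdx1 at 398 RPKM (0 to 895), with differences of −0.43 and −0.84, and Cat was listed in 4 of 9 cells. A difference within the bound does not show that levels are equal. Hba-a1 itself was at 49.6 to 532 RPKM in Mpo-high cells. Per 1000 RPKM of Hba-a1, Prdx2 was at a median of 2049 RPKM in Mpo-high cells (3.93 to 5320) and 10.7 RPKM in globin-rich cells (2.18 to 22.0), and the erythroid genes Alas2 and Slc4a1 reached 1 RPKM in 0 of 9 Mpo-high cells.

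Against globin-rich cells, 4 genes were higher in Mpo-high cells and 3 were lower, where 68.0% of all genes were higher and 6.71% were lower. Gstp1 (5.84), Prdx1 (4.89), Txn1 (2.69) and Sod1 (2.22) were higher. Prdx2 (−4.31), Gclm (−3.50) and Nqo1 (−2.46) were lower. Relative to the median gene, which was higher by 1.93, Prdx2 stood at −6.24 as deposited, −5.01 after rescaling and −7.49 without globin. Gpx1 was within the bound as deposited, but its difference was 1.23 after rescaling and −1.90 without globin. The difference of Sod1 was 2.92 within run SCP-170608 and 0.96 within run SCP-1706080. Against only the globin-rich cells with at least 2000 genes, Sod1 was at 0.29.

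A wider list of 57 redox genes was read in the same way, of which 36 met the filter on low values. Between globin-rich and globin-low cells, 30 of the 57 were lower and 1 was higher, where 38.2% of all 13088 genes with any value were lower and 1.34% were higher. Of the 36 that met the filter, 27 were lower and 1 was higher, where the shares over 5855 genes were 71.2% and 2.97%, so this list was near the background too. By the same rule as above, 2 were kept, 7 were reduced, 16 were lost and 32 were listed in under 50% of the cells of both classes. The kept genes were Glrx5, a mitochondrial glutaredoxin of iron-sulfur cluster assembly, listed in 37 of 37 globin-rich cells at a median of 899 RPKM, and Mgst3, a microsomal glutathione transferase with peroxidase activity. Mgst3 was the gene that was higher, by 1.66, with medians of 626 RPKM in globin-low (0.42 to 2216) and 1275 RPKM in globin-rich cells (0.22 to 2815). That call rests on the globin-low cell with the least Hba-a1, where Mgst3 was at 0.42 RPKM. Without this cell Mgst3 was at 0.39, Glrx5 turned from 0.80 to −0.64, and 0 of the 57 were higher. The largest differences were those of Gstp2 (−7.19), Park7 (−7.00), Gsto1 (−6.84), Prdx6 (−6.68), Glrx3 (−6.25) and Gstm5 (−5.78). Gsto1, an omega-class transferase, and Glrx3, a cytosolic glutaredoxin, were listed in 0 of 37 globin-rich cells, which allows a share of up to 9.49%. Prdx6, a peroxiredoxin that uses glutathione, was listed in 7 of 7, 11 of 11 and 12 of 37 cells along the 3 classes. Mitochondrial Prdx3 was among the reduced genes, with a median of 550 RPKM in globin-low and 107 RPKM in globin-rich cells, and so was Gpx4, the lipid hydroperoxide peroxidase, at 888 and 492 RPKM.

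In Mpo-high cells 16 of the 57 were lower than in globin-low cells and 15 were higher, where 15.6% of all 13088 genes were lower and 15.7% were higher. Of the 36 that met the filter, 15 were lower and 9 were higher, where 29.5% of 5855 genes were lower and 18.1% were higher. Gstm1, a mu-class transferase, was higher by 6.61 and listed in 7 of 9 Mpo-high cells at a median of 976 RPKM (0 to 2944), against 1 of 7 globin-low cells. Mgst1 was higher by 4.83 and listed in 6 of 9 cells, against 0 of 55 erythroid cells. Mgst3 (−6.12) and Gstm5 (−6.06) were lower, so that transferases of the same families were on opposite sides of this comparison.

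Over the 55 erythroid cells, the 3 genes most like each commonly listed member were taken by rho, as a description. Prdx2 was most like Mgst3 (0.73), Blvrb (0.66), a biliverdin reductase, and Atpif1 (0.62), an inhibitor of the mitochondrial ATP synthase. Prdx1 was most like AV051173 (0.93), Rpl23 (0.89) and Prdx6 (0.86). AV051173 is a transcript that overlaps the start of Prdx1, so the same reads may count for both. Txn1 was most like Ranbp1 (0.81), Rpl38 (0.80) and Rps10 (0.79), and Sod1 like Mcm2 (0.66), Set (0.66) and Rpl38 (0.65). Gstp1, after Gstp2, was most like Romo1 (0.85) and Polr2l (0.84). The kept genes Gpx1 and Gclm had weaker neighbours: Gucd1 (0.50), Hbq1b (0.45) and Gypc (0.44) for Gpx1, and Zc3h15 (0.54), Akirin1 (0.49) and Ehd1 (0.48) for Gclm. The median rho of all genes was 0.37 with Prdx1, 0.37 with Gstp1, 0.34 with Txn1 and 0.25 with Sod1. It was 0.10 with Prdx2, −0.12 with Gpx1 and 0.06 with Gclm, so rho values of different members are not directly comparable.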

How the data were processed

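The authors deposited RPKM values for 34899 transcript entries and 24321 gene symbols in 96 cells, with column sums of 202287 to 2810247. Single cells were captured with the Fluidigm C1, SMART-Seq amplified the cDNA and Nextera XT made the libraries, per the labels' protocols. Per the submitters' processing notes, reads were handled with TopHat2 2.0.9 and the build was mm9. The counting step is not given in the sources used here. A gene took the value of its highest transcript in each cell. RPKM are not counts, so no count model was used, and values were compared as log2(RPKM + 1), which understates differences of low genes.

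Cells with at least 1000 genes were classed in this order: Mpo-high (Mpo at 1000 RPKM or more), another lineage (at least 3 and at least 50% of a non-erythroid marker list at 10 RPKM or more, 4 cells), marker-poor (fewer than 3 erythroid markers, 1 cell) and erythroid, split by Hba-a1. The non-erythroid lists were neutrophil, monocyte or macrophage, mast cell or basophil, T or NK cell, B cell, megakaryocyte, and stroma or endothelium. An early progenitor list was counted per cell but was not used to class cells. No doublet caller was run. A gene was kept when listed at 1 RPKM in at least 50% of globin-rich cells with a difference to globin-low above −1, and reduced when that difference was −1 or less. All 10 members were named. Of the wider list, the 6 with the largest difference between globin-rich and globin-low cells and the 4 between Mpo-high and globin-low cells were named, as were the 3 genes most like each member. Glrx5, Prdx3 and Gpx4 were added once their values were known. The members, lists and bounds were chosen with earlier results of these data known.

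Depth was estimated from steps between low RPKM values using a length for 97.6% of transcripts and a tolerance of 0.06 of a read. On 20 simulated cells the median ratio of estimated to true depth was 0.98, but only 12 were within 10 percent, and whether a unit is a read or a pair is not known, so depths are rough. Intervals are exact Clopper-Pearson at 95%. Promoters are from RefSeq in GRCm38.p6, another build than the values. Python 3.11.15, numpy 2.4.6, pandas 2.3.3, scipy 1.17.1 and matplotlib 3.10.9 were used, and differences were tested on simulated data. Alternatives covered the pseudocount, scaling, transcript summing, cell and class bounds, run codes and the statistic.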

Additional observations from a re-analysis of the deposited data

Results flagged for a closer look

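A value was singled out when the gap between it and its nearest neighbour took up most of the range of a class of 4 to 9 cells. This was so for 8 of 30 combinations of class and gene, where chance singles out about 1 in 20 for values without ties. These values hold many zeros, and 3 of the 8 come from 1 cell, so the counts are not comparable. In globin-low cells it was Gclm in cell 68, at 0 RPKM, with the next cell at 74.1 RPKM. In Mpo-high cells it was cell 12 for 3 genes, with Prdx1 at 0, Prdx2 at 1.08 and Gstp1 at 0 RPKM, where the next cells were at 218, 213 and 269 RPKM. This cell listed the fewest genes of its class. Among the 4 cells with markers of another lineage, Prdx2 was at 5.72 RPKM in cell 56 and Sod1 at 0 in cell 54, each below the other cells, while Gclc at 6.38 RPKM in cell 3 and Gclm at 15.6 RPKM in cell 56 were the only values above 0.

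Cells under the gene minimum, which entered no comparison, held the highest value of 6 genes. Prdx2 was at 8879 RPKM in cell 35 (852 genes), Gpx1 at 46790 RPKM in cell 44 (412 genes), and Gclm at 511 and Txn1 at 914 RPKM in cell 45. Cat at 2708 and Gstp1 at 9247 RPKM were both in cell 6, which listed 53 genes. The highest values in classed cells were 7121 for Prdx2, 10859 for Gpx1, 428 for Gclm, 879 for Txn1, 273 for Cat and 1671 for Gstp1.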

How the results depend on the processing

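Over 25 alternatives, 1092 of 1164 recomputed values lay within 1 SD over cells of the reported value or, for counts, within 1.5 times. Of these, 867 were values of single genes, and 42 of the 867 had the opposite sign, as for Gclm between globin-rich and globin-low cells (−1.35 after rescaling, −0.89 without cell 68). No paired analysis was possible because all cells carry 1 group label and no test was made. The count of kept genes (3) became 0 after rescaling to a total of 1000000 and was 3 or 2 elsewhere. The count of reduced genes (1) became 4 after that rescaling, 3 with globin left out, with transcripts summed and without run SCP-1706013, 5 with a gene minimum of 2000 for all or only for globin-rich cells, and 2 without run SCP-170608, within runs SCP-1706013 and SCP-170608, and with erythroid cells in 3 equal parts by Hba-a1 rank or by Hba-a1 share. The count of lost genes (6) became 2 with either gene minimum of 2000 and 3 in equal parts by rank. Between globin-rich and globin-low cells, members higher (0) became 3 with globin left out, 1 with a gene minimum of 500, 1 with marker-poor cells joined and 2 within run SCP-170608, and members lower (7) became 4 with a gene minimum of 500. Between globin-rich and globin-mid cells, members higher (0) became 1 with a pseudocount of 0.1, with globin left out, with either gene minimum of 2000, without run SCP-170608 and within run SCP-1706080, and members lower (5) became 3 and 2 in equal parts by rank and by share. In that comparison Sod1 reversed to 0.51 and 0.45 in equal parts by rank and share and to 0.71 within run SCP-1706080, and Gclc to 0.14 in equal parts by share. With a gene minimum of 500, Mpo-high minus globin-low had 3 members higher in place of 0, and Gstp1 reversed to 1.12. The cause of these changes was not tested. The alternatives that left out cell 68 (the globin-low cell of least Hba-a1), cell 12 (the Mpo-high cell of fewest genes) or globin-rich cells under 2000 genes were chosen after seeing the data.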

Other observations

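The 4 cells with markers of another lineage and the 1 marker-poor cell entered no comparison. In the 4 cells Txn1 was at 185 to 527 RPKM and Gstp1 at 267 to 1014 RPKM, Prdx2 was at 5.72 to 639 RPKM, and Cat and Nqo1 reached 1 RPKM in 0 of 4, which allows a share of up to 60.2%. In the marker-poor cell Prdx1 was at 457, Gstp1 at 1279 and Prdx2 at 1.53 RPKM. Nfe2l2, which encodes NRF2, was listed in 6 of 7 globin-low and 11 of 37 globin-rich cells, and Hmox1, the inducible heme oxygenase, in 0 of 7 and 1 of 37. Both were picked out with their values known.

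The limits are those of 1 sample. Cells are not replicates, so no difference has an error that covers animals or cultures, and without wild-type cells nothing here bears on the effect of the Rpl11 allele. The globin-low class has 7 cells, and 1 of them, cell 68, decides whether Gclm is higher or lower than in globin-rich cells. The lineage of that cell is uncertain by its markers. The number of genes per cell and Hba-a1 cannot be told apart over the erythroid cells. A value of 0 means only that a transcript is listed at 0 in the deposited table.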
